A study of Xenopus laevis with 35 samples.

Results

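Beta-tubulin tubb4b.L, coronin coro1c.L and tropomyosin tpm4.S were the 3 cytoskeleton genes followed here, of 243 genes named on a custom array hybridised with brain RNA of Xenopus laevis tadpoles. They were taken by name, through the array's probe annotation, and each was measured by 1 probe of the 449. They were chosen by results already known from these arrays: tubb4b.L was taken to be selected on its log2 difference between PTU-exposed and control brains, the comparison it was known for, which is therefore described below without a test. Which comparison, if any, drew attention to coro1c.L and tpm4.S is not known. No probe of a homeolog or of another tubulin, coronin or tropomyosin was found among the named probes.

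Tadpoles at NF stage 54, early in the metamorphosis that thyroid hormone drives, were kept for 24, 48 or 96 h in water with 100 mg/L methimazole (MMI), 20 mg/L propylthiouracil (PTU) or 4 mg/L perchlorate (PER), or in water without a compound (control). MMI and PTU are thionamides, which block thyroid hormone synthesis at the thyroid peroxidase, and PER blocks the uptake of iodide into the gland. Each group of 1 treatment and 1 time had 3 arrays, except PER at 24 h, which had 2, so that 9 MMI, 9 PTU, 8 PER and 9 control arrays were compared. For each treatment and time RNA was taken from whole brains of 10 tadpoles out of 2 tanks and combined into 3 pools, and the labels do not say which tank fed which pool, so p-values measure the spread between pools.

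Microtubules are hollow polymers of alpha- and beta-tubulin pairs. They form the tracks for transport in axons and dendrites and the mitotic spindle of dividing progenitors, and growing brains make much tubulin. Actin filaments give growth cones and cell edges their shape. Coronins bind these filaments and act on the Arp2/3 complex and on cofilin, which branch and sever them, and tropomyosins lie along the filament and set which myosins and severing proteins reach it.

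The arrays of this small design differed in quality. Between 86 and 241 of the 449 probes were above background on MMI arrays, 104 to 154 on PTU arrays, 131 to 209 on PER arrays and 79 to 147 on control arrays; above background means over 2 times the array's background SD, which was estimated from its negative values. Replicate 1 of PER at 24 h and replicate 3 of PER at 48 h held nearly the same values (Pearson r 0.9999 over probe averages). Of 886 spots compared, 829 were within 1% of a constant ratio of 1.04. The 8 PER arrays are therefore 7 distinct ones, and mean PER values of the 3 genes are given with and without this shared array. At 96 h the mean correlation of an array with its own group was 0.752 to 0.935 in the exposed groups, against 0.373 to 0.511 in the controls, the lowest of all groups. Of the 4 neuronal markers, gap43.S, a growth cone protein, was above background on 34 of 35 arrays and npy.S on 30. The other neuronal markers, ina.S and trh.S, were above background on only 5 and 4 arrays. The highest median of the 4 was that of gap43.S, 21204.5 units. The glial myelin gene mbp.S was so on 30, and the summed level of the 4 neuronal markers on the array ran from 15179 to 28043 units in MMI, 13953 to 31659 in PTU, 25075 to 43387 in PER and 609 to 25815 in control arrays. The array held no muscle marker of the 18 listed, the red blood cell marker hbd.S was above background on 7 arrays, the gut marker fabp2.L on 5 and the retinal marker crx.L on 4, while gh1.S of the pituitary was so on 33 and casp1.L of immune cells on 29. The part of cell makeup in the results below was not tested, and in whole brains fewer cells of a type and less RNA per cell cannot be told apart.

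Values are scaled intensities: the deposited intensity, averaged over the 2 neighbouring spots of a probe and divided by a factor for each array that sets its median over 18 bright probes equal. Levels of different probes depend on the probe and are not set against each other. Differences are on a log2 scale after an offset of 67.7 units, with limma's standard error (SE) from one fit to all 35 arrays, and a difference was called where limma's p, adjusted over all probes tested in that comparison by Benjamini-Hochberg, was under 0.05.

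The tubb4b.L transcript encodes a beta-tubulin that enters the microtubules of most cells, and the array's own name for the probe, betatub56d, is that of a fly beta-tubulin. It was bright on every array: 35 of 35 were above background. The group mean was above that of the controls of the same time in all 9 groups of compound and time, and the 9 PTU arrays, which had drawn attention to the gene, averaged 2.30 times the 9 control arrays. The compounds share these controls, the PTU groups are among the 9, and the share of all probes with this pattern was not counted.

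At 24 h the tubb4b.L probe had 11654, 8759 and 14327 units in MMI brains, 17003, 11959 and 16560 in PTU brains, 8986 (the shared array) and 17468 in PER brains, and 10877, 6335 and 7974 in control brains. All 3 PTU arrays were above the highest control array of that time, while 1 MMI array and the shared PER array lay inside the control range. At 48 h the values were 11985, 10719 and 14947 units in MMI, 18391, 16306 and 23442 in PTU, 24960, 26391 and again 8986 in PER, and 7366, 8892 and 8731 in control brains. The exposed and control ranges did not overlap at 48 h, but the shared PER array stood only just above the highest control array. At 96 h MMI brains had 16582, 12948 and 16436 units, PTU brains 23462, 29041 and 23123, PER brains 17667, 19239 and 17455, and control brains 8803, 9442 and 9616. Here every exposed array was above every control array, and the PTU arrays were above all MMI and PER arrays. The share of all probes that separate at a single time was not counted. Nothing is therefore read from such separations, for this gene or those below.

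**Figure D1:**
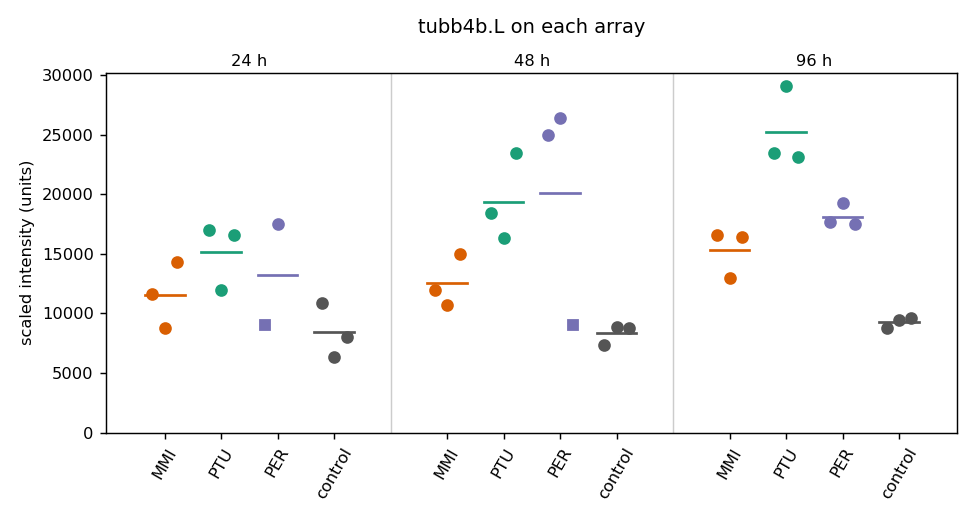
Scaled intensity of tubb4b.L (vertical axis, units) on each of the 35 arrays, by treatment at 24, 48 and 96 h. Each point is 1 array, squares mark the shared PER array and horizontal lines are group means. All 3 PTU arrays of 96 h lie at or over 23123 units, and all 9 control arrays lie at or under 10877.

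Over the 3 times tubb4b.L averaged 13151 ± 2646 units in MMI brains (SD, n = 9), 19921 ± 5208 in PTU brains (n = 9), 17644 ± 6353 in PER brains (n = 8) and 8671 ± 1326 in control brains (n = 9). Without the shared array the 6 PER arrays averaged 20530 ± 4066. The highest control array, at 10877 units, was exceeded by 7 of 9 MMI arrays, 9 of 9 PTU arrays and 6 of 8 PER arrays, the last becoming 6 of 6 without the shared array. In values as deposited, with no scaling, 8 of 9 PTU arrays, 4 of 9 MMI arrays and 6 of 8 PER arrays exceeded every control array. The share of all probes was not taken for such counts of only part of the exposed arrays, so nothing is read from them. A complete separation of exposed and control arrays was uncommon: it held for 2.7% of 74 probes in PTU and for 3.57% of 84 in PER without the shared array, counting probes above background on 18 or more arrays with a value on every array compared. Nothing is read from the PTU count, since it was part of the choice. The PER count uses the same control arrays and holds only without the shared array, so nothing is read from it either.

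Ordered by group mean, the levels of tubb4b.L were highest in PTU at 96 h (25209 ± 3323 units, n = 3), followed by PER at 48 h, PTU at 48 h, PER at 96 h, MMI at 96 h, PTU at 24 h, PER at 24 h, MMI at 48 h and MMI at 24 h (11580 ± 2785). The control groups came last, with 9287 ± 428 at 96 h, 8395 ± 2300 at 24 h and 8330 ± 839 at 48 h. Neighbours in this order overlapped in range, except MMI and PER at 96 h, whose arrays did not overlap; their difference, MMI minus PER, was −0.25 (SE 0.47, limma adjusted p = 0.977; 0% of 442 probes were called). PTU means were higher at each later time, but 96 h minus 24 h within PTU, 0.74 (SE 0.47), was not called (limma adjusted p = 0.685; 1.82% of probes were called). Neither were the same differences within MMI, 0.42 (limma adjusted p = 0.843; 0.226% called), and PER, 0.53 (limma adjusted p = 1; 0% called). In controls 96 h minus 24 h was 0.18 (SE 0.47, 95% interval −0.78 to 1.14, limma adjusted p = 0.891), in a comparison where 5.39% of probes were called. The median change of the bright probes, those above background on 18 or more arrays, was itself −0.92 there. Relative to that median tubb4b.L was therefore higher in controls at 96 h than at 24 h.

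A rank within the array needs no scaling. Counted from the brightest probe, tubb4b.L held ranks 17 to 23 on MMI arrays (median 21), 9 to 25 on PTU arrays (median 16), 9 to 29 on PER arrays (median 14.5) and 22 to 49 on control arrays (median 31). Without the shared array the PER ranks were 9 to 17. By rank 8 of 9 PTU arrays, 5 of 9 MMI arrays and 6 of 8 PER arrays stood above every control array. The share of all probes was not taken for these counts, and the PTU arrays were part of the choice, so nothing is read from them. Control ranks were themselves closer to the top at 96 h (22 to 28) than at 24 h (32 to 49), while the scaled group means were 9287 and 8395 units.

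**Figure D2:**
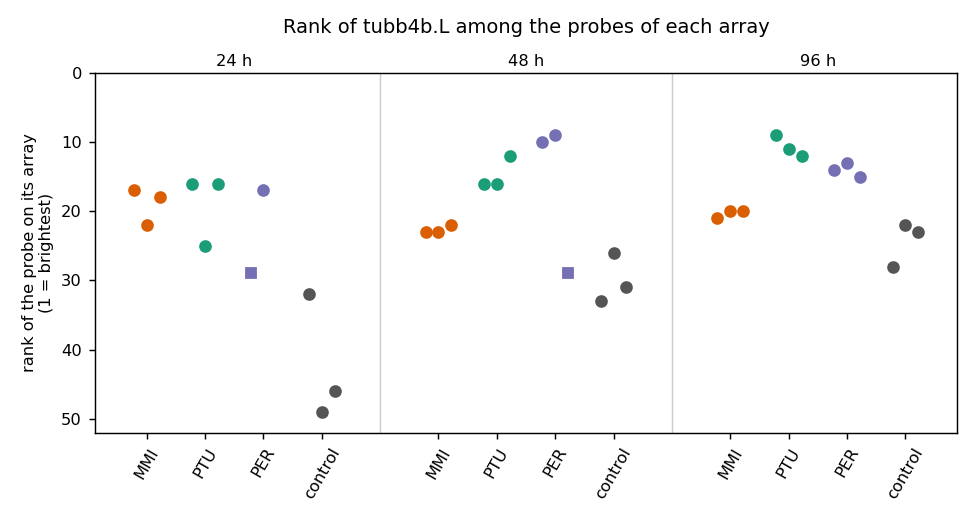
Rank of tubb4b.L among the probes of its own array (vertical axis, 1 is the brightest, shown at the top), by treatment at 24, 48 and 96 h; each point is 1 array and squares mark the shared PER array. PTU arrays of 96 h rank 9 to 12 and control arrays of 24 h rank 32 to 49.

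In the fit, tubb4b.L was higher in PTU than in control brains by 0.87 at 24 h, 1.20 at 48 h and 1.43 at 96 h (SE 0.47 each), and by 1.16 (SE 0.27) as the mean of the 3 times. In that mean comparison 19 of 438 probes tested were called (4.34%), 8 higher and 11 lower, a share from which nothing is read about tubb4b.L. The median change of the bright probes, those above background on 18 or more arrays, was 0.04 over the 92 tested there, so tubb4b.L stood 1.13 above it, and it stood 0.91 above it after quantile normalization.

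The same 9 control arrays served the other compounds. They were part of the PTU difference taken to have chosen tubb4b.L, so the tests below are not independent of that choice. MMI minus control was 0.47 at 24 h, 0.58 at 48 h and 0.71 at 96 h (SE 0.47 each), with a mean of 0.59 (SE 0.27, 95% interval 0.03 to 1.14), which was not called (limma adjusted p = 0.389); 5 of 442 probes were called there (1.13%). All 9 MMI arrays were above the control mean of their time. The share of all probes was not taken for this count or for those like it below, so nothing is read from them. The 96 h value depended on the scaling: as deposited it was −0.01, and against the median of the bright probes, which was itself 0.90 higher at 96 h, tubb4b.L stood at −0.19.

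PER minus control was 0.61 at 24 h (SE 0.52), 1.12 at 48 h and 0.96 at 96 h (SE 0.47 each), with a mean of 0.90 (SE 0.28, 95% interval 0.32 to 1.47, limma adjusted p = 0.0985), and 7 of 441 probes were called in that mean (1.59%). Without the shared array the differences were 1.09 at 24 h, 1.62 at 48 h and 1.22 in the mean (SE 0.29, limma adjusted p = 0.0796); PER at 24 h was then 1 array, assumed to vary like the other groups. Its adjusted p ran from 0.00377 to 0.404 over the alternatives, and it passed the threshold under 5 of them, among them with only probes above background on 9 or more arrays tested (0.90, limma adjusted p = 0.00377) and without PER at 48 h replicate 3 alone (1.06, limma adjusted p = 0.0270). With only the probes above background on 9 or more arrays fitted, the SE was 0.21, against 0.28 in the main fit. All 8 PER arrays were above the control mean of their time. The median of the bright probes was itself 0.60 higher in PER at 96 h. Against it tubb4b.L stood at 0.36, and at −0.07 after quantile normalization. At 24 and 48 h it stood 0.92 and 1.10 above that median.

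Outside PTU against control, 38 comparisons of tubb4b.L between compounds, times and their effects were fitted and none was called by limma, with 5 at an unadjusted p under 0.05; between 0 and 5.39% of all probes were called per comparison. The concentrations differed between compounds, so the following differences are not of matched doses. Those with PTU also use arrays that were part of the choice of the gene. MMI minus PTU was −0.58 in the mean (95% interval −1.13 to −0.03, limma adjusted p = 0.427; 0% of probes were called), and MMI minus PER was −0.31 (interval −0.89 to 0.27, limma adjusted p = 0.831; 0% called). PTU minus PER was 0.27 (interval −0.31 to 0.84, limma adjusted p = 0.839; 0.915% called), and −0.06 without the shared array.

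**Figure D3:**
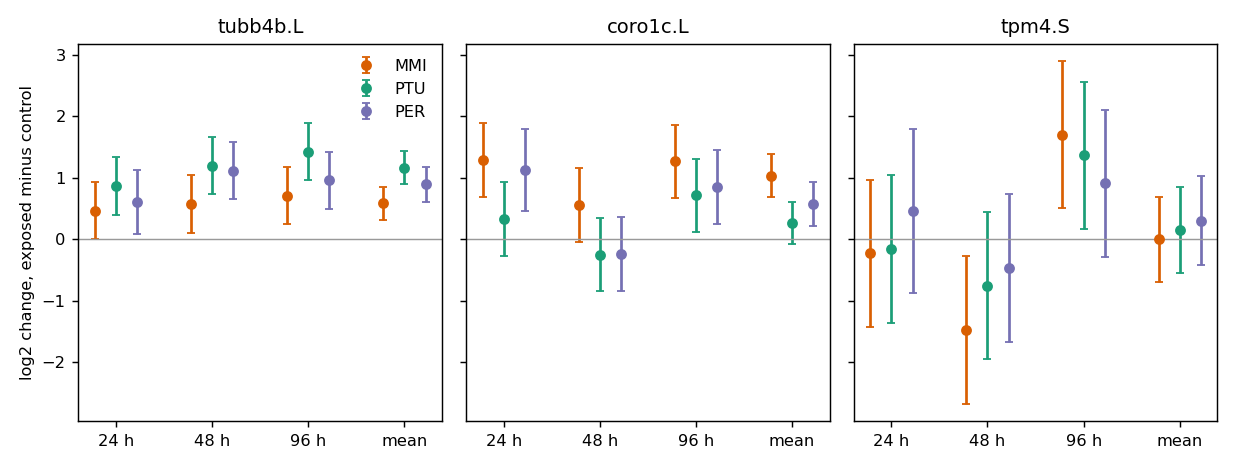
Log2 difference between exposed and control arrays (vertical axis) for tubb4b.L, coro1c.L and tpm4.S at 24, 48 and 96 h and as the mean of the 3 times; points are estimates from one fit and bars their SE. All tubb4b.L points lie above 0, coro1c.L is highest in MMI with a mean of 1.04, and the bars of tpm4.S span a wide range on both sides of 0.

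The coro1c.L probe, for a coronin found in many non-muscle cells, was much nearer the background: it was above it on 25 of 35 arrays, namely 8 of 9 MMI, 7 of 9 PTU, 8 of 8 PER and 2 of 9 control arrays. The background SD itself had a median of 614 units on MMI, 582 on PTU, 349 on PER and 1051 on control arrays, so the limit was highest in controls, and these counts cannot be read as counts of expression. At 24 and 96 h the probe was above background on none of the 3 control arrays.

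At 24 h coro1c.L had 3231, 3603 and 2134 units in MMI brains, 1316, 1175 and 2039 in PTU brains, 2960 (the shared array) and 2286 in PER brains, and 1671, 1663 and 537 in control brains. MMI and PER arrays were all above the control arrays, and PTU arrays overlapped them. At 48 h the values were 1930, 5368 and 4403 in MMI, 2153, 2353 and 1642 in PTU, 1857, 1543 and 2960 in PER, and 2690, 2769 and 1891 in control brains. The control group stood higher here than at the other times, and only MMI had arrays, 2 of 3, well above it. At 96 h MMI brains had 1058, 2282 and 3257 units, PTU brains 941, 1405 and 1809, PER brains 1040, 1603 and 1922, and control brains 289, 1587 and 1002. All 3 exposed groups overlapped the controls.

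Over the 3 times coro1c.L averaged 3030 ± 1334 units in MMI brains (SD, n = 9), 1648 ± 478 in PTU brains (n = 9), 2022 ± 680 in PER brains (n = 8; 1709 ± 421 without the shared array, n = 6) and 1566 ± 855 in control brains (n = 9). The group means ran from 3900 ± 1774 in MMI at 48 h, the highest, to 959 ± 651 in control brains at 96 h, the lowest.

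MMI brains differed from control brains by 1.29 at 24 h, 0.55 at 48 h and 1.27 at 96 h (SE 0.60 each) and by 1.04 in the mean (SE 0.35, 95% interval 0.33 to 1.75), a difference that was not called (limma adjusted p = 0.162), with 8 of 9 MMI arrays above the control mean of their time. The 96 h differences hung on control replicate 1 of that time, at 289 units from spots of −1508 and 2129 as deposited. Without this array the 96 h difference fell from 1.27 to 0.63 in MMI, from 0.71 to 0.08 in PTU and from 0.85 to 0.22 in PER. Where the control arrays give only a bound, the MMI mean at 24 h was 1.05-fold the lowest level above background on them (2990 ± 764 against 1290 ± 653 units as measured, limma adjusted p = 0.385, with 0.676% of probes called at 24 h). This ratio leaves out the spread of the MMI arrays. Their lowest, at 2134 units, lay under the background limit of each control array of 24 h (2433.5 to 3264 units). For MMI at 96 h and for PTU and PER at 24 and 96 h the same ratio was under 1. The fitted differences of all these groups, MMI at 24 h among them, are therefore uncertain in size. The fitted 1.29 is 1.78 above the median of the bright probes at 24 h, which was −0.49. At 96 h that median was itself 0.90 in MMI, and coro1c.L stood only 0.37 above it. It stood 0.42 above the median at 48 h and 0.81 above it in the mean. The PTU mean was 0.27 (SE 0.35, limma adjusted p = 0.766) and the PER mean 0.58 (SE 0.36, limma adjusted p = 0.510; 0.43 without the shared array, limma adjusted p = 0.811). The PER mean was called after quantile normalization (1.33, limma adjusted p = 0.0415), while the MMI mean ran from 0.83 to 1.67 over its alternatives, none of them called (lowest limma adjusted p = 0.0505).

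MMI minus PTU was 0.77 for coro1c.L (95% interval 0.06 to 1.48, limma adjusted p = 0.401), opposite in sign to the same difference for tubb4b.L; neither passed the threshold, and the concentrations differed. The PTU arrays were part of the choice of tubb4b.L, so nothing is read from the opposite signs. In control brains 96 h minus 48 h was −1.53 (SE 0.60, limma adjusted p = 0.294; 1.58% of probes were called). None of the 45 comparisons fitted was called for coro1c.L by limma, and 5 had an unadjusted p under 0.05.

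**Figure D4:**
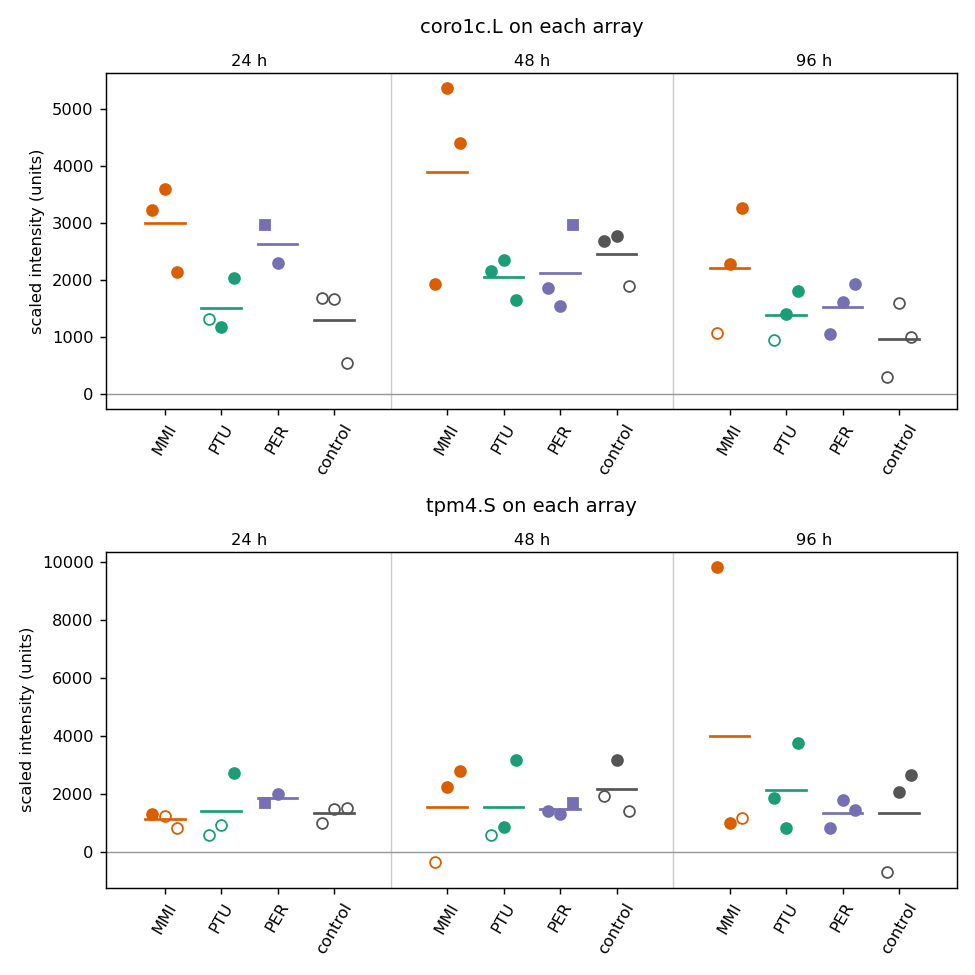
Scaled intensity (vertical axes, units) of coro1c.L (top) and tpm4.S (bottom) on each array, by treatment at 24, 48 and 96 h. Filled symbols are above background, open ones are not, squares mark the shared PER array and lines are group means. For coro1c.L 2 of 9 control arrays are filled, and for tpm4.S 1 MMI array of 96 h stands at 9819 units.

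The tpm4.S probe, named tm-4 on the array, is for a tropomyosin of non-muscle cells. It was above background on 22 of 35 arrays: 5 of 9 MMI, 6 of 9 PTU, 8 of 8 PER and 3 of 9 control arrays.

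At 24 h tpm4.S had 1311, 1254 and 846 units in MMI brains, 606, 948 and 2741 in PTU brains, 1702 (the shared array) and 2001 in PER brains, and 1003, 1501 and 1519 in control brains. At 48 h it had −349, 2244 and 2811 units in MMI, 593, 880 and 3176 in PTU, 1418, 1333 and 1702 in PER, and 1941, 3170 and 1418 in control brains. At 96 h it had 9819, 1020 and 1186 units in MMI, 1884, 837 and 3748 in PTU, 849, 1800 and 1454 in PER, and −687, 2057 and 2656 in control brains. Every exposed group but PER at 24 h overlapped its controls. The highest value, 9819 in MMI at 96 h, came from a pair of spots that disagreed, 2777 and 9534 as deposited.

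Over the 3 times tpm4.S averaged 2238 ± 2976 units in MMI brains (SD, n = 9), 1713 ± 1219 in PTU brains (n = 9), 1532 ± 354 in PER brains (n = 8; 1476 ± 400 without the shared array, n = 6) and 1620 ± 1092 in control brains (n = 9). The mean differences from control were 0.00 for MMI (SE 0.69, 95% interval −1.42 to 1.42, limma adjusted p = 0.999), 0.15 for PTU (SE 0.69, interval −1.27 to 1.57, limma adjusted p = 0.971) and 0.30 for PER (SE 0.72, interval −1.17 to 1.78, limma adjusted p = 0.888; 0.31 without the shared array). These intervals leave room for changes of over 1 log2 unit either way. Without replicate 1 of the controls at 96 h, the array with the negative value, the 3 means were −0.57, −0.42 and −0.27. That value also came from a pair of spots that disagreed, 2238 and −3717 as deposited. None of 45 comparisons was called for tpm4.S by limma, and none had an unadjusted p under 0.05.

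The 2 spots of a probe matched best for tubb4b.L. The brighter spot exceeded the dimmer by a median ratio of 1.17 for tubb4b.L, 1.35 for coro1c.L and 1.79 for tpm4.S. The ratio was over 2 on 1 of 35 arrays for tubb4b.L, on 8 of 34 for coro1c.L and on 14 of 33 for tpm4.S, counting arrays with both spots above 0.

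Across the 12 groups Pearson r of the log2 group means was 0.02 between tubb4b.L and coro1c.L, 0.23 between tubb4b.L and tpm4.S and 0.15 between coro1c.L and tpm4.S. The coro1c.L and tpm4.S probes lay near the background, so these low values cannot show that the genes share no pattern. Among 53 named probes above background on 18 or more arrays, the group means most like tubb4b.L were those of gapdh.S and ldha.L, both of glycolysis (r 0.67 each), and msi1.S, an RNA-binding protein of neural progenitors (r 0.63). For coro1c.L they were lmo3.S, a LIM-only transcription regulator (r 0.82), mbd3.S, a chromatin protein (r 0.81), and xnf7.L (r 0.73), and for tpm4.S btg1.S, which restrains cell division (r 0.59), cct3.S (r 0.57) and pkm.S, a pyruvate kinase (r 0.56). The 12 means share arrays and scaling, so these values only describe.

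The array named 8 other cytoskeleton genes, from lists that were also drawn up with earlier results known. They were the microtubule genes kif2c.S (a depolymerising kinesin), katna1.S (the severing subunit of katanin) and xnf7.L (a nuclear factor that also binds microtubules in Xenopus eggs), calponin cnn2.L, which binds actin, lamin lmnb1.L and the neuronal filament ina.S, the kinase pak1.S, and cct3.S, a subunit of the chaperonin that folds tubulin and actin. Of these, katna1.S was above background on 34 arrays and xnf7.L and cct3.S on 33 each, while the remaining 5 were above it on 5 to 11 arrays.

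At 96 h 2 of the 8 were called higher in MMI than in control brains (3.84% of 443 probes were called higher there) and the same number in PTU (1.14% of 440), and 1 of 8 in PER (1.13% of 442). None was called lower. The lists were drawn up with earlier results of these arrays known, so these counts and the p-values below are not an independent test. These counts hung on single arrays of 96 h. With 1 array of the groups compared left out at a time, the MMI count was 3 without control replicate 3 and 1 without any other control or MMI array. The PTU count was 4 without control replicate 3, 3 without PTU replicate 1, 1 without control replicate 1 or 2, and 0 without PTU replicate 2 or 3. The PER count was 0 without control replicate 2 or any PER array. At 96 h the median change of the bright probes was itself 0.90 in MMI, 0.34 in PTU and 0.60 in PER. xnf7.L differed by 3.93 in MMI (SE 0.80, limma adjusted p = 0.00584), 3.53 in PTU (limma adjusted p = 0.0157) and 3.64 in PER (limma adjusted p = 0.0154). cct3.S differed by 1.64 in MMI (SE 0.47, limma adjusted p = 0.0449), 2.08 in PTU (limma adjusted p = 0.0157) and 1.36 in PER, which was not called (limma adjusted p = 0.282).

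Both differences stood beside a low control group of 96 h. xnf7.L had 6546 ± 160 units in MMI, 5077 ± 1475 in PTU, 5336 ± 146 in PER and 1132 ± 2152 in control brains at 96 h (n = 3 each), with 1 of the 3 control arrays above background. The size of these differences therefore hangs on the treatment of values near 0: MMI minus control was 2.59 with negative values left out and 4.67 with a 4 times smaller offset. PTU minus control was 2.19 with negative values left out and no longer called (limma adjusted p = 0.0607). Within controls xnf7.L was lower at 96 h than at 24 h by −3.87 (SE 0.80, limma adjusted p = 0.00398; 4.72% of probes were called lower). cct3.S had 8153 ± 356 units in MMI, 11379 ± 3134 in PTU, 6749 ± 1037 in PER and 2636 ± 705 in control brains, and was lower by −1.88 in controls at 96 h than at 24 h (SE 0.47, limma adjusted p = 0.0157). With a 4 times smaller offset cct3.S in MMI at 96 h was no longer called (limma adjusted p = 0.0650). For 96 h minus 24 h in controls the median change of the bright probes was itself −0.92. The tubb4b.L probe had 8803 to 9616 units on the same 3 arrays. It belongs to the probes that set the scale of each array. It was also taken to be selected on a difference that uses these controls. Its level here therefore cannot show whether the low control group of 96 h affected it. In the mean of the 3 times 1 of the 8 was called in MMI (xnf7.L, 1.81, SE 0.46, limma adjusted p = 0.0483). This call was lost on leaving out any 1 MMI or control array but replicate 3 of MMI or control at 24 h and replicates 1 and 2 of control at 96 h. PTU and PER arrays were not left out singly for it. None was called in PTU or PER, where xnf7.L had an unadjusted p under 0.05, but 1 was in each without control replicate 1 of 96 h. These calls also hung on the offset. With a 4 times smaller one xnf7.L was not called in the MMI mean (limma adjusted p = 0.118). In the PER mean it was called with a 4 times larger one (limma adjusted p = 0.0289) and with negative values left out (limma adjusted p = 0.0217). The median change of the 8 was 0.21 in MMI, 0.16 in PTU and 0.08 in PER, beside −0.08, −0.18 and −0.17 over all probes tested.

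katna1.S, the other bright microtubule gene, was at 3703 ± 1411 units in MMI (n = 9), 4128 ± 1847 in PTU (n = 9), 3556 ± 1632 in PER (n = 8; 4362 ± 779 without the shared array, n = 6) and 4045 ± 1673 in control brains (n = 9). Its mean differences were 0.03, 0.15 and −0.21 (limma adjusted p = 0.986, 0.945 and 0.874). At 24 h its 3 MMI arrays (1996 to 2982 units) and both PER arrays (1138 and 3194, the first the shared array) lay below the 3 control arrays (3383 to 4029), with differences of −0.57 in MMI (limma adjusted p = 0.812) and −0.96 in PER (limma adjusted p = 0.803) that were not called, and at the other times the groups overlapped.

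**Figure D5:**
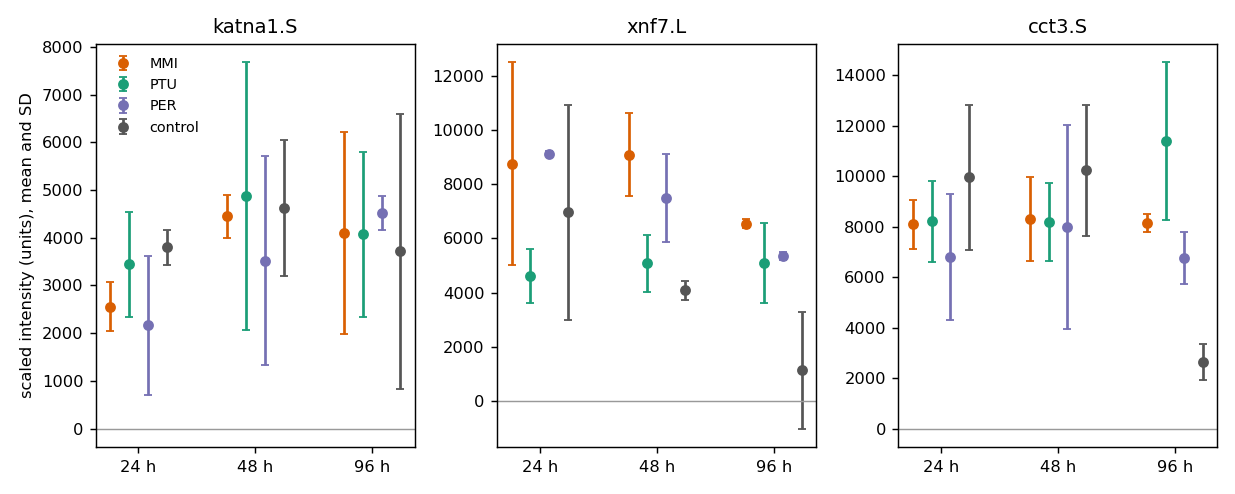
Group means with SD of scaled intensity (vertical axes, units) for katna1.S, xnf7.L and cct3.S at 24, 48 and 96 h in MMI, PTU, PER and control brains (n = 3, and 2 for PER at 24 h; control at 48 h has 2 values for cct3.S). Control means of xnf7.L and cct3.S are lowest at 96 h, 1132 and 2636 units, and katna1.S at 24 h has lower means in MMI and PER, 2557 and 2166 units, than in control, 3799.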

How the data were processed

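Radioactively labelled cDNA was hybridised to a custom cDNA array, 1 colour, per the labels' protocols. The deposited values are linear intensities per spot with values below 0; no label or header names the authors' background correction, scanner software or scaling. The members and gene lists were chosen with earlier results of these data known. Both spots of a probe were averaged (1 was used where the other was empty; 677 spot values were empty), each array was divided by its median over 18 probes above background on all 35 arrays (tubb4b.L is one of them), values below 0 were set to 0, 67.7 units were added, the 5th percentile of positive values, and log2 taken. limma 3.58.1 in R 4.3.3 was fitted over 12 groups (lmFit, eBayes, Benjamini-Hochberg per comparison, probes with 2 or more values a group); it was tested on simulated data. Symbols were updated through gene IDs to RefSeq (Xenopus_laevis_v10.1): 250 probes had a gene, 199 none, and 3 genes kept the array's symbol. Named genes were the members, every other gene of the cytoskeleton lists, the 3 probes most like each member, and markers of cell types. Replicate numbers are pools with no stated link across groups: deviations of same-numbered arrays had a median correlation of 0.01 over 166 pairs (−0.38 to 0.70), so they were not treated as pairs. Arrays give no counts, and their number limits the precision.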

Additional observations from a re-analysis of the deposited data

Results flagged for a closer look

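Of 12 sets of arrays of a member and treatment over the 3 times, 1 held an array far from the others. tpm4.S had 9819 units on MMI at 96 h replicate 1, while the next highest of the 9 MMI arrays had 2811, a gap of 0.689 of the whole range. The limit it passed is one that chance alone passes in about 1 of 20 sets. No difference of a member's change between times or between compounds passed the threshold in 60 limma tests, which leave out PTU against control for tubb4b.L (lowest adjusted p = 0.401, 2 at an unadjusted p under 0.05).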

How the results depend on the processing

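The mean PTU difference of tubb4b.L, which had chosen the gene, is only described: it was 1.85 with the all-probe median as scale, 1.10 to 1.23 without 1 array and 1.16 with the replicate block. Its MMI mean was 0.49 to 1.27 (0.52 to 0.65 without 1 array; 0.59, limma adjusted p = 0.396, with the replicate block), with no call. Its PER mean was 0.74 to 1.06 without 1 array and was called after quantile normalization (1.01), with a 4 times larger offset (0.88), with negative values left out (0.90) and with dim probes filtered out (0.90), but not with the replicate block (0.90, limma adjusted p = 0.141). With dim probes filtered out fewer probes were tested, and the SE was also smaller, 0.21 against 0.28 in the main fit. The cause of these calls was not tested. For coro1c.L, leaving out 1 array gave 0.83 to 1.20 in MMI, 0.06 to 0.42 in PTU and 0.37 to 0.74 in PER, the PTU mean was −0.18 from the first spot, and the PER mean was called after quantile normalization (1.33). For tpm4.S, leaving out 1 array gave −0.57 to 0.58 in MMI, −0.42 to 0.47 in PTU and −0.27 to 0.62 in PER. Its MMI mean turned negative in values as deposited (−0.087), with a 4 times smaller offset (−0.0051), from the first spot (−0.93) and over 24 and 48 h only, an alternative chosen after seeing the data (−0.85). Its PTU mean did so with negative values left out (−0.42), from the first spot (−0.83) and over 24 and 48 h (−0.45), and its PER mean with negative values left out (−0.27) and from the first spot (−0.19).

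Among differences that were not called, those of tubb4b.L in controls turned sign from 1 spot alone (48 h minus 24 h −0.10, 96 h minus 24 h −0.14, 96 h minus 48 h −0.22) and ran from −0.16 to 0.22, −0.0052 to 0.38 and 0.07 to 0.21 without 1 array. PTU minus PER was −0.057 without the shared array. The MMI effect at 96 h minus that at 24 h was −0.53 as deposited, −1.01 after quantile normalization, −0.98 with the all-probe median and −0.045 from the first spot, and the PER one −0.16 after quantile normalization and −0.13 without the shared array (−0.13 to 0.83 without 1 array). For coro1c.L in controls, 48 h minus 24 h was −0.19 and 96 h minus 48 h 0.18 from the second spot, 96 h minus 24 h was 0.032 with the all-probe median (−1.02 to 0.12 without 1 array), and PTU minus PER was 0.14 from the second spot. For tpm4.S in controls, 96 h minus 24 h was 0.80 with negative values left out, 0.20 from the first and 0.17 from the second spot (−1.87 to 0.80 without 1 array), and 96 h minus 48 h 0.18 with negative values left out (−2.49 to 0.18). MMI minus PTU was 0.0021 with the larger offset and 0.43 with negative values left out (−0.50 to 0.43 without 1 array), MMI minus PER 0.28 with negative values left out (−0.65 to 0.28), and PTU minus PER −0.38 to 0.027 without 1 array. The cause of these turns was not tested.

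Of the 8 other cytoskeleton genes, the 96 h count for MMI was 1 in values as deposited, after quantile normalization, with the all-probe median and with the replicate block, and for PTU 1 as deposited and with the all-probe median. Without 1 array these counts were 1 to 3 and 0 to 4, and 0 to 1 for PER. With the block cct3.S in MMI at 96 h had a limma adjusted p = 0.0567 and xnf7.L in the MMI mean one of 0.0695. In the mean of the times the MMI count was 0 as deposited and with the replicate block (0 to 1 without 1 array), and the PTU and PER counts were 1 after quantile normalization and with the all-probe median (0 to 1 without 1 array). Over all probes the mean comparisons had 5 calls in MMI, 19 in PTU and 7 in PER, against 0, 17 and 8 with the replicate block and 0, 17 and 0 without the shared array. The replicate block changed no other call of a member or of these 8 genes. Of 33 arrays, 17 correlated best with their own replicate number, where 166 pairs of arrays shared a number and 331 did not. Whether 17 is more than chance gives was not tested. With 3 arrays a group and probes near the background, small changes of coro1c.L and tpm4.S were not detectable.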
